A study of Mus musculus with 10 samples.

Results

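Interferon-stimulated genes are the antiviral and immune genes that cells switch on when they meet type I or gamma interferon, and 46 of them were followed here across whole mammary tumours of mice. The 46 genes were chosen by name as known targets, 34 of them mainly of type I interferon, 10 of the guanylate-binding protein (GBP) and immunity-related GTPase (IRG) families, which answer strongly to gamma interferon, and the 2 regulators Irf1 and Socs1. All 46 were found by symbol among the 57010 genes of the counts table, and all 46 were among the 18577 genes that passed the filter on low counts. Untreated mice carried the MMTV-PyMT transgene, in which the promoter of a mammary tumour virus drives a viral oncogene mainly in mammary epithelium. The 5 knockout (KO) tumours were PyMT; RHBDL4 -/-, without both copies of a rhomboid protease of the endoplasmic reticulum encoded by Rhbdd1, and the 5 wild-type (WT) tumours had the gene intact and carried PyMT as well. Both groups were taken 5 weeks after tumour onset, and the labels give no age, strain or sex and no tissue to which the knockout is limited.

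Interferons bind receptors that act through JAK kinases. Type I interferon assembles a complex with STAT2 and IRF9 that binds the interferon-stimulated response element (ISRE) of its targets, while many targets of gamma interferon carry the gamma-activated site (GAS). Tumour cells, stroma and infiltrating immune cells can all respond, so a whole-tumour level mixes the share of responding cells with the RNA each one holds, and these cannot be told apart in bulk RNA.

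The letters of both elements stood in many of the genes' promoters. RefSeq gave a window of 250 bases before to 50 bases after a start for 34 of the 46 genes on build GRCm38.p6, which is not the GRCm39 build of the counts. The ISRE letters GAAANNGAAA, read on both strands, were in the windows of 20 of the 34 genes (58.8%), against 3.99% of all 27025 genes with a window. The GAS letters TTCNNNGAA, the same on both strands, were in 12 of 34 (35.3%), against 9.55% of all genes, and both motifs were in 8 of 34 (23.5%), against 0.54%. The 2 motifs can overlap in letters, and a match describes only these letters in this window. By class, all 8 GBP/IRG genes with a window held the ISRE letters and 5 of the 8 held both motifs, whereas 11 of the 24 type I genes held the ISRE and 3 of the 24 held both. The stretches below show the arrangement for genes of the families described further on, 5′ to 3′ along the gene's own strand, with the motif letters in capitals and 20 bases on either side.
Ifit1, chr19:34640765-34640833, + strand, -124 to -56 from its start, with the ISRE letters at 2 places: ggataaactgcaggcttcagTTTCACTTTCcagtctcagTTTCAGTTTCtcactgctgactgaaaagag
Ifit3, chr19:34583353-34583436, + strand, -176 to -93, with the ISRE letters at 2 places: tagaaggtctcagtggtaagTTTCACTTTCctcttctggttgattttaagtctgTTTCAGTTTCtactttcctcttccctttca
Isg15, chr4:156200855-156200916, - strand, -98 to -37, with the ISRE letters at 3 overlapping places: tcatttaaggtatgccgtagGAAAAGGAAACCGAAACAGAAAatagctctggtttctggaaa
Irf1, chr11:53769904-53769952, + strand, -110 to -62, with the GAS letters alone: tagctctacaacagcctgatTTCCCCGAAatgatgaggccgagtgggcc
Gbp7, chr3:142530210-142530312, + strand, -126 to -24, with the GAS letters at 2 places and the ISRE at 1: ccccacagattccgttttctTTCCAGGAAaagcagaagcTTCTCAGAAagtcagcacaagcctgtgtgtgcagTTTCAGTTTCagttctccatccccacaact
Igtp, chr11:58199491-58199551, + strand, -65 to -5, with the GAS and then the ISRE letters: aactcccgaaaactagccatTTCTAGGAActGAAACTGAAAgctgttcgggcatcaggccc
Irgm2, chr11:58214882-58214942, + strand, -95 to -35, with the same order: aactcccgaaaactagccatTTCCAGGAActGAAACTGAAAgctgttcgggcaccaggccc
Tgtp1, chr11:48992294-48992354, - strand, -108 to -48, with the same order: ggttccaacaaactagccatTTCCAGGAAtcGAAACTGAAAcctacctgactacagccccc
In Igtp, Irgm2 and Tgtp1 the ISRE began 11 bases after the first base of the GAS. The stretches of Igtp and Irgm2 differed at 2 of 61 bases, and those of Irgm2 and Tgtp1 at 20 of 61. The stretch of Ifit3 was identical over 84 bases to that of its neighbour Ifit3b at chr19:34607749-34607832.

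Libraries held 25.7 to 43.3 M counts, and levels are given as CPM, counts per M counts of a library scaled by TMM factors, which does not correct for gene length. WT replicate 5 stood apart from the other 9 libraries. Its TMM factor was 0.588, against 1.01 to 1.10 in the others, its summed luminal epithelial markers were 142.7 CPM, against 4918 to 7858 CPM in the others, and its summed skeletal muscle markers were 124719 CPM, against at most 1386 CPM. The label of mammary tumour is therefore not borne out for that library by its epithelial markers, and the comparison of the groups is given with and without it, single genes mostly in the fits that named them. Rhbdd1 was at 17.0 ± 3.40 CPM in KO and 35.2 ± 7.48 CPM in WT tumours (SD, n = 5 each), so transcript remained in the KO libraries. Each library has a batch label of its own, so batch and group cannot be told apart. The names of 3 pairs of libraries begin with the same number (KO replicates 3 and 4, WT replicates 1 and 2, WT replicates 3 and 4). Whether it stands for an animal is not in the labels, so the libraries of a group may not be independent, and p-values cover their spread, technical spread included.

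WT replicate 1 held these genes at levels far above every other tumour. It was the highest of the 10 libraries for 45 of the 46 genes, a position it held for 10.8% of all tested genes. Its level was at least 4-fold over the median of the other 9 libraries for 40 of the 46 genes, against 1.76% of all tested genes, and at least 2-fold over the highest of the other 9 for 41 of the 46, against 1.23%. The median ratio of WT replicate 1 to the median of the other 9 was 10.7 over the 46 genes and 1.0 over all tested genes. Ifi27 was the exception, with its highest level in WT replicate 5. This is a description of 1 library, which has no replicate. The list was chosen with earlier results of these data known, so the shares over all tested genes are no test of it.

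**Figure D1:**
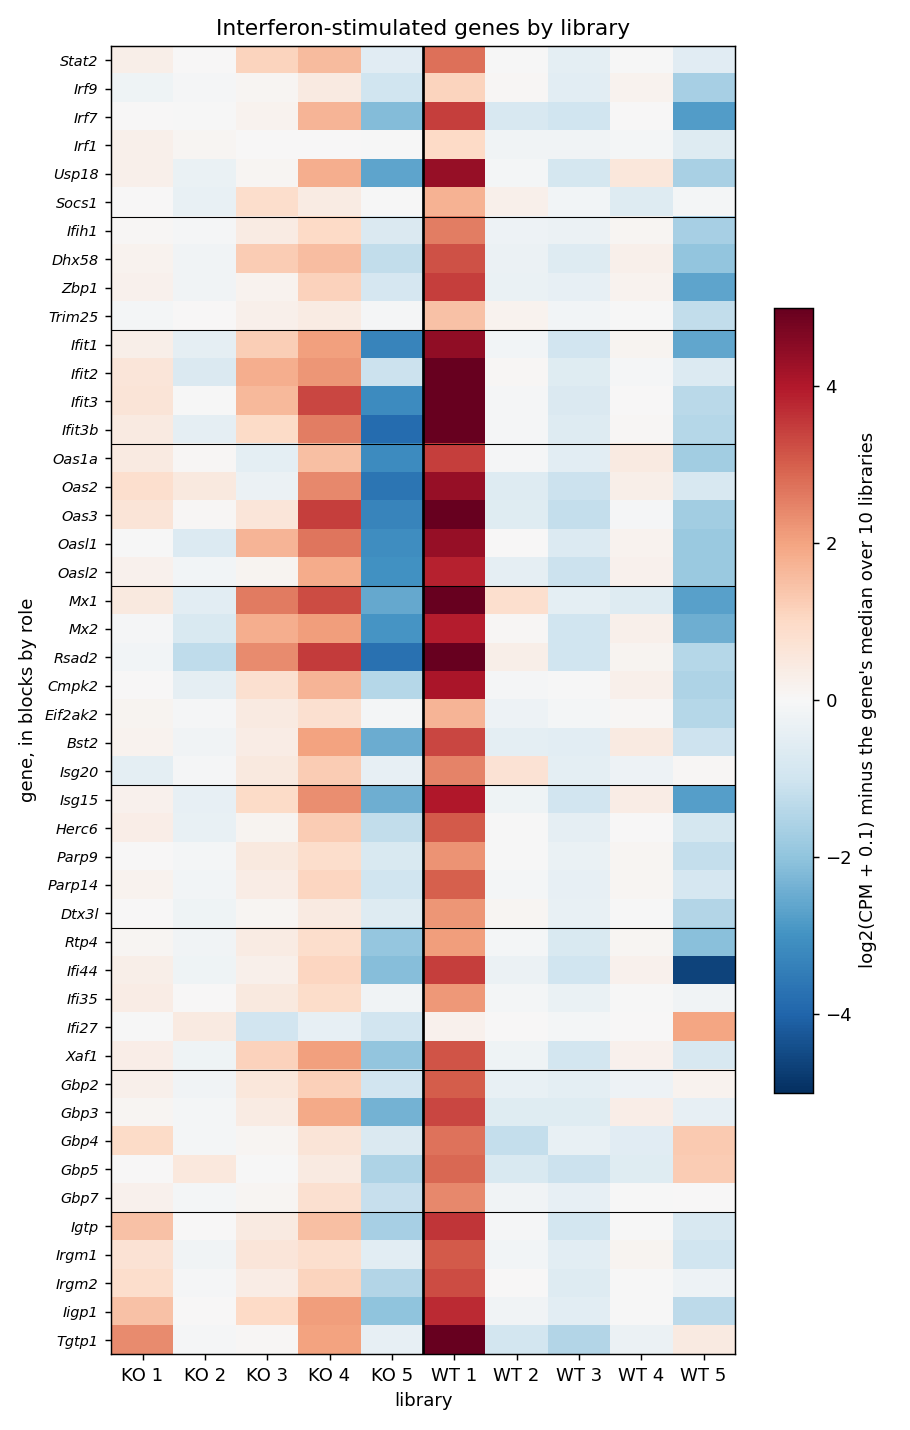
Level of each of the 46 genes in each library as log2(CPM + 0.1) minus the gene's median over the 10 libraries, KO libraries left of WT libraries, with genes in blocks by role and colours saturating at 5 in either direction. WT replicate 1 has the darkest red for 45 of 46 genes, and KO replicate 4 is next for 40. KO replicate 5 holds the lowest value of 25 genes and WT replicate 5 of 16 (7.29% and 36.5% of all tested genes).

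Below WT replicate 1 the KO tumours spread widely. KO replicate 4 was the second highest of the 10 libraries for 40 of the 46 genes, against 14.9% of all tested genes, and the highest KO library for 40 (23.6% of all tested genes). KO replicate 5 was the lowest KO library for 43 of the 46 genes, against 18.8% of all tested genes. It was the lowest of all 10 libraries for 25 of the 46 genes, against 7.29% of all tested genes. WT replicate 5 was the lowest for 16 of the 46, a position it held for 36.5% of all tested genes. That count is no higher than its share over all genes. The ratio of KO replicate 4 to KO replicate 5 reached 157 for Rsad2 and 133 for Oas3, and was 1.02 for Irf1. KO replicates 3 and 4 were both above WT replicates 2 to 5 for 35 of the 46 genes, against 14.2% of all tested genes. The SD of log2(CPM + 0.1) within a group had a median over the 46 genes of 1.16 in KO and 1.72 in WT libraries, where over all 18577 tested genes it was 0.343 in KO and 0.538 in WT libraries. Without WT replicate 1 the median SD of the 46 genes in WT libraries was 0.697, against 0.530 for all genes. Without WT replicates 1 and 5 it was 0.427, against 0.195. In KO libraries without KO replicate 5 it was 0.758, against 0.342, so the KO spread also rested in part on 1 library.

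WT replicate 1 was the highest library for all 6 regulators of the pathway, with the highest ratio for Usp18, which strips the ubiquitin-like protein ISG15 from its targets and restrains signalling at the type I receptor. Usp18 had 16.8, 11.1, 14.9, 49.3 and 2.14 CPM in KO replicates 1 to 5, against 290.0, 13.1, 7.60, 20.8 and 4.47 CPM in WT replicates 1 to 5. WT replicate 1 stood 22.1 times over the median of the other 9, the groups overlapped, and KO replicate 5 was lowest. Its log2 fold change, KO minus WT, was -1.84 ± 1.21 (SE; edgeR quasi-likelihood adjusted p = 0.686), and -2.11 ± 1.14 (SE; edgeR adjusted p = 0.509) without WT replicate 5. Without WT replicate 1 it was 0.71 ± 0.77 (SE). Among the other 5 regulators, WT replicate 1 was at 11 times the median of the others for Irf7, a transcription factor that amplifies interferon alpha production. The ratio was 6.73 for Stat2 and 2.22 for Irf9, both parts of the ISRE-binding complex. It was 3.59 for Socs1, which inhibits JAK kinases, and 2.03 for Irf1, a factor induced by gamma interferon. Irf1 was the most even of the 46 between the KO libraries, at 60.2, 54.4, 51.3, 52.1 and 51.0 CPM, against 103, 45.7, 45.5, 48.3 and 32.5 CPM in the 5 WT libraries.

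The 4 sensors of nucleic acid and their helpers had ratios in WT replicate 1 from 2.81 for Trim25, a ubiquitin ligase, to 12.5 for Zbp1, a sensor of nucleic acids in the Z form. Zbp1 had 38.0, 29.2, 37.2, 72.4 and 18.3 CPM in KO replicates 1 to 5, against 364, 25.8, 24.6, 36.9 and 5.14 CPM in WT replicates 1 to 5. WT replicate 1 was highest and WT replicate 5 lowest, so WT libraries lay on both sides of all KO libraries. The log2 fold change of Zbp1 was -1.23 ± 0.97 (SE; edgeR adjusted p = 0.721), and -1.51 ± 0.83 (SE; edgeR adjusted p = 0.513) without WT replicate 5. Leaving out WT replicate 1 instead gave 0.75 ± 0.54 (SE). The RNA sensors Ifih1, which encodes MDA5, and Dhx58, which encodes LGP2, had ratios of 6.15 and 10.5.

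The IFIT family, whose proteins bind foreign RNA and hinder its translation, held some of the steepest contrasts, with WT replicate 1 at 23.7 to 56.0 times the median of the others over its 4 genes. Ifit3 had 17.5, 10.8, 34.4, 112 and 1.16 CPM in KO replicates 1 to 5, against 605, 10.7, 6.65, 11.3 and 4.27 CPM in WT replicates 1 to 5. Ifit2 had 21.7, 8.56, 51.1, 67.2 and 6.81 CPM in the KO libraries, against 616, 14.8, 9.49, 13.9 and 8.94 CPM in the WT libraries. For both genes KO replicates 3 and 4 lay above WT replicates 2 to 5 and below WT replicate 1, and KO replicate 5 was the lowest library. The log2 fold change of Ifit2 was -2.09 ± 1.35 (SE; edgeR adjusted p = 0.684), and -2.37 ± 1.30 (SE; edgeR adjusted p = 0.514) without WT replicate 5. In the fit without WT replicate 1 it was 1.40 ± 0.67 (SE). Ifit3 and Ifit3b share sequence, 51.2% of the stretches of 50 bases in Ifit3 transcripts occurring in Ifit3b as well, so their separate values are uncertain.

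Enzymes of the OAS family make short oligoadenylates that activate RNase L, though not every OAS-like protein does. The 5 genes of this family, the OAS-like Oasl1 and Oasl2 included, had ratios of 11.5 to 47.5 in WT replicate 1. Oas3 had 8.07, 5.33, 7.77, 57.7 and 0.433 CPM in KO replicates 1 to 5, against 233, 3.33, 2.19, 4.91 and 1.47 CPM in WT replicates 1 to 5. Within the KO group replicate 4 stood apart, and within the WT group replicate 1 did. Oas1a had 33.2, 25.2, 17.2, 69.7 and 2.68 CPM in the KO libraries, against 272, 23.8, 17.0, 33.9 and 7.27 CPM in the WT libraries, with a log2 fold change of -1.26 ± 1.04 (SE; edgeR adjusted p = 0.729). Without WT replicate 5 it was -1.53 ± 0.98 (SE; edgeR adjusted p = 0.571), and without WT replicate 1 it was 0.53 ± 0.76 (SE). In Oas1a transcripts 57.6% of 50-base stretches also occur in Oas1g, so its value is uncertain.

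Among 7 further antiviral effectors, Mx1, a dynamin-like GTPase that blocks viral ribonucleoproteins, had the highest ratio of all 46 genes, 63.9. Mx1 had 10.6, 5.15, 45.9, 73.0 and 1.19 CPM in KO replicates 1 to 5, against 340.3, 13.5, 5.32, 4.80 and 1.07 CPM in WT replicates 1 to 5. KO replicates 3 and 4 again lay between WT replicate 1 and the remaining WT libraries. Cmpk2, a nucleotide kinase of mitochondria, had 23.0, 16.5, 39.6, 74.4 and 8.46 CPM in the KO libraries, against 389, 22.1, 22.4, 27.4 and 7.81 CPM in the WT libraries. Its log2 fold change was -1.53 ± 1.06 (SE; edgeR adjusted p = 0.693), and -1.81 ± 0.98 (SE; edgeR adjusted p = 0.511) without WT replicate 5. It was 0.70 ± 0.61 (SE) without WT replicate 1. Ratios in WT replicate 1 were 39.3 for Rsad2 (viperin, a radical enzyme that makes a chain-terminating nucleotide), 15.8 for Mx2, 11.4 for Bst2 (tetherin, which holds budding virions at the membrane) and 5.82 for Isg20, an exonuclease. The lowest of the 7 was 3.43 for Eif2ak2, the kinase PKR that halts translation when it binds double-stranded RNA.

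Isg15, the ubiquitin-like modifier itself, had 23.9, 15.7, 40.3, 104 and 3.79 CPM in KO replicates 1 to 5, against 335, 18.0, 10.7, 27.0 and 3.00 CPM in WT replicates 1 to 5. WT replicate 1 was highest and WT replicate 5 lowest. Herc6, the mouse ligase of ISG15, the ADP-ribosyltransferase genes Parp9 and Parp14, and Dtx3l, a ubiquitin ligase that works with PARP9, were less steep. Their ratios ran from 4.57 for Dtx3l to 8.67 for Herc6, against 18.6 for Isg15. Parp14 had 53.3, 42.8, 61.9, 99.1 and 23.7 CPM in the KO libraries, against 376, 44.2, 35.5, 50.8 and 26.2 CPM in the WT libraries, with a log2 fold change of -0.92 ± 0.76 (SE; edgeR adjusted p = 0.727), and of 0.52 ± 0.38 (SE) without WT replicate 1. Dtx3l had 78.8, 68.4, 83.8, 107 and 49.9 CPM in the KO libraries, against 359.7, 83.4, 60.5, 78.6 and 28.7 CPM in the WT libraries. WT replicates 1 and 5 were its highest and lowest libraries, and without WT replicate 5 its log2 fold change was -0.89 ± 0.51 (SE; edgeR adjusted p = 0.524). With both left out it was 0.08 ± 0.22 (SE). Parp9, the partner of Dtx3l, had a ratio of 4.81. For Herc6, 23.8% of the 50-base stretches occur in another gene, so its value is less certain.

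Of the remaining induced genes, Ifi44 was highest in WT replicate 1 and Ifi27 was not. Ifi44 had 68.7, 47.4, 66.6, 115 and 12.6 CPM in KO replicates 1 to 5, against 606, 44.9, 27.6, 64.8 and 2.14 CPM in WT replicates 1 to 5. WT replicate 1 was highest and WT replicate 5 lowest, and without that lowest library the log2 fold change was -1.56 ± 0.92 (SE; edgeR adjusted p = 0.538). Without both it was 0.45 ± 0.57 (SE). Ifi27, which encodes a small mitochondrial protein, had 145, 199.6, 76.3, 112 and 75.6 CPM in the KO libraries, against 169, 149.7, 138, 148 and 570.3 CPM in the WT libraries. Its level in WT replicate 1 was 1.16 times the median of the others, and WT replicate 5 stood apart at the top. The log2 fold change of Ifi27 over all libraries, -0.95 ± 0.47 (SE; edgeR adjusted p = 0.669), had the smallest p of the 46 genes. Without WT replicate 5, the library with its highest level, it was -0.29 ± 0.27 (SE). Xaf1, Rtp4 and Ifi35 had ratios of 10.2, 4.47 and 4.55 in WT replicate 1, and 13.6% of the stretches of Rtp4 occur in another gene.

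The GBP genes encode GTPases that coat the membranes of intracellular pathogens, and all 5 were highest in WT replicate 1, with ratios of 5.34 to 10.9. Gbp3 had 27.4, 24.1, 34.4, 95.9 and 4.87 CPM in KO replicates 1 to 5, against 263, 16.6, 16.8, 32.7 and 19.5 CPM in WT replicates 1 to 5. Gbp5, which also promotes inflammasome assembly, had 3.30, 4.71, 3.16, 4.49 and 1.03 CPM in the KO libraries, against 24.5, 1.85, 1.48, 2.11 and 7.87 CPM in the WT libraries. Gbp7 had 36.2, 29.2, 33.1, 53.8 and 13.8 CPM in the KO libraries, against 162, 27.1, 23.3, 30.4 and 31.4 CPM in the WT libraries. For these 3 genes WT replicate 5 was above WT replicates 2 and 3, and for Gbp4 and Gbp5 it was the second highest library. The log2 fold change of Gbp5 over all libraries was -1.18 ± 0.81 (SE; edgeR adjusted p = 0.692), and that of Gbp7 without WT replicate 5 was -0.85 ± 0.61 (SE; edgeR adjusted p = 0.617). With WT replicate 1 left out of each of these fits, they were 0.03 ± 0.60 (SE) for Gbp5 and 0.32 ± 0.35 (SE) for Gbp7. The values of Gbp4 and Gbp7 are less certain, since 12.8% of the 50-base stretches of each occur in other genes.

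The 5 IRG genes encode GTPases that mark and disrupt the vacuoles of intracellular parasites in mice, and had ratios of 9.22 for Irgm1 to 50.9 for Tgtp1. Tgtp1 had 6.58, 1.15, 1.23, 5.06 and 0.865 CPM in KO replicates 1 to 5, against 58.4, 0.583, 0.365, 0.942 and 1.67 CPM in WT replicates 1 to 5. KO replicates 1 and 4 lay above WT replicates 2 to 5, and KO replicate 1 was the second highest library. Its log2 fold change was -2.06 ± 1.43 (SE; edgeR adjusted p = 0.693), and -2.31 ± 1.43 (SE; edgeR adjusted p = 0.558) without WT replicate 5. Without WT replicate 1 it was 1.78 ± 0.76 (SE), and without both 2.26 ± 0.80 (SE). Because 91.4% of the 50-base stretches of Tgtp1 occur in other genes, mostly Tgtp2, its counts may hold only part of what these copies make. Igtp, Irgm2 and Iigp1 had ratios of 12.2, 9.51 and 13.4, and 12.3% of the stretches of Igtp occur in Irgm2.

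**Figure D2:**
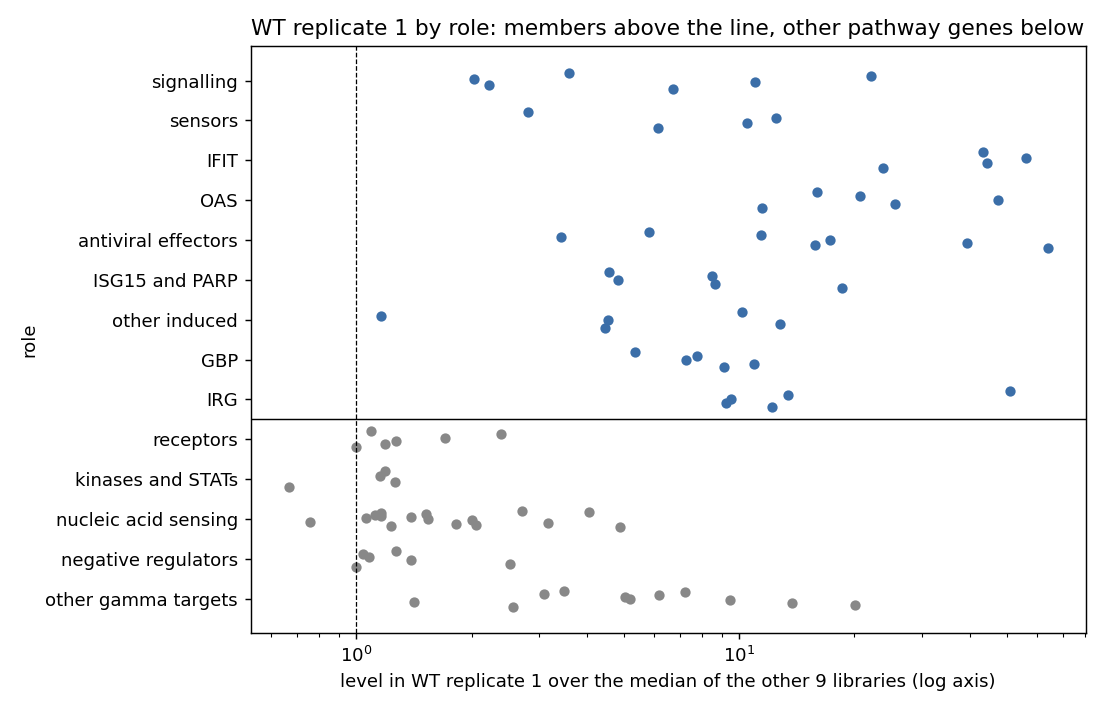
Level in WT replicate 1 over the median of the other 9 libraries on a log axis, 1 point per gene, for the 46 genes by role (blue, above the line) and for a selection of other genes of the pathway (grey, below). Points of the IFIT family lie at 23.7 to 56.0, those of the GBP and IRG families at 5.34 to 50.9, and those of the interferon receptors at 1.0 to 2.39.

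Type I and GBP/IRG genes had the same highest, second and lowest tumour by their scores. The type I score, the mean log2 CPM of the 34 type I genes, was 5.09, 4.68, 5.58, 6.56 and 3.00 in KO replicates 1 to 5, against 8.32, 4.79, 4.27, 5.01 and 3.37 in WT replicates 1 to 5. The GBP/IRG score over 10 genes was 4.87, 4.00, 4.38, 5.28 and 2.73 in the KO libraries, against 7.38, 3.58, 3.31, 3.89 and 3.97 in the WT libraries. Both scores were highest in WT replicate 1, next in KO replicate 4 and lowest in KO replicate 5, and the groups overlapped on both. The type I score minus the GBP/IRG score was 0.22, 0.67, 1.19, 1.28 and 0.28 in KO replicates 1 to 5, against 0.94, 1.22, 0.96, 1.12 and -0.60 in WT replicates 1 to 5. WT replicate 5 was thus the 1 library in which the GBP/IRG score was above the type I score, and KO replicates 1 and 5 had the smallest positive differences. WT replicate 1, at 0.94, lay among the other libraries on this difference, and 30 of 34 type I and 10 of 10 GBP/IRG genes were there at least 4-fold over the median of the others. The scores mix genes of different length, so the size of this difference is read only between libraries.

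**Figure D3:**
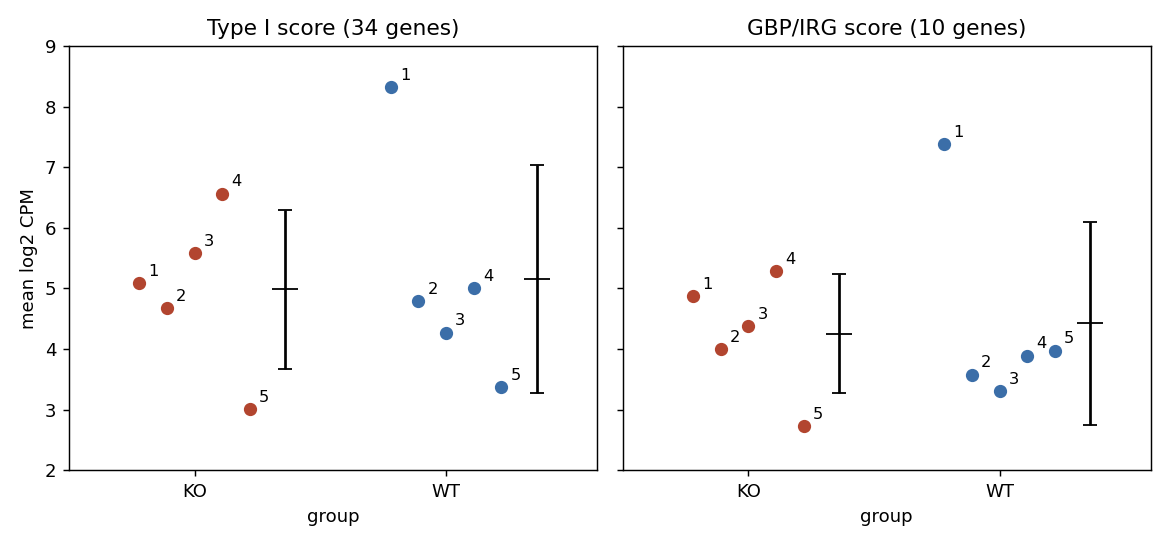
Type I score (left, 34 genes) and GBP/IRG score (right, 10 genes) as mean log2 CPM per library, KO left of WT, 1 point per library with its replicate number, and bars for mean ± SD over 5 libraries. WT replicate 1 lies at 8.32 and 7.38, above the KO maxima of 6.56 and 5.28 in replicate 4.

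No interferon-stimulated gene passed the test of KO against WT tumours across all genes. edgeR called 0 of the 46 genes at an adjusted p under 0.05 over all 10 libraries (0.0% of 18577 tested genes) and 0 of the 46 without WT replicate 5 (0.0105% of 19016). At an unadjusted p under 0.05 edgeR counted 0 of the 46 in both fits, against 7.0% and 11.6% of all tested genes. DESeq2 called 0 of the 46 in both fits (0.291% and 2.43% of all tested genes), but gave no p for 19 of the 46 in each, which it marks as having an outlying count, against 6.82% and 0.836% of all tested genes. limma-voom with sample quality weights also called 0 in both fits (0.0915% and 0.747%). For none of the 46 genes did the KO and WT libraries separate without overlap, against 1.99% of all tested genes.

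The direction of the fitted difference turned with WT replicate 1. All 46 log2 fold changes, KO minus WT, were negative over all libraries, with a median of -0.93 (all tested genes -0.06, 43.8% of them positive), and all 46 were negative without WT replicate 5, with a median of -1.13 (all tested genes 0.03, 53.2% positive). Without WT replicate 1, 45 of the 46 were positive, with a median of 0.73 (all tested genes -0.04, 45.9% positive). Without WT replicates 1 and 5, 45 of the 46 were positive, with a median of 0.72 (all tested genes 0.03, 53.7% positive). Ifi27 was the exception in both. None was called there either (0.0% of tested genes in each fit), with 3 of the 46 at an unadjusted p under 0.05 without WT replicate 1 (Ifi35, Tgtp1 and Stat2, against 8.28% of all tested genes) and 4 of the 46 without both (Tgtp1, Gbp4, Irf1 and Ifi35, against 10.9%). The genes were named here after their values were seen. Medians are less moved by 1 library than the fitted means, and the KO median was above the WT median for 40 of the 46 genes over all libraries (48.8% of all tested genes) and for 33 without WT replicate 5 (48.0%). The 46 genes move together across libraries, so these counts are not 46 separate observations.

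**Figure D4:**
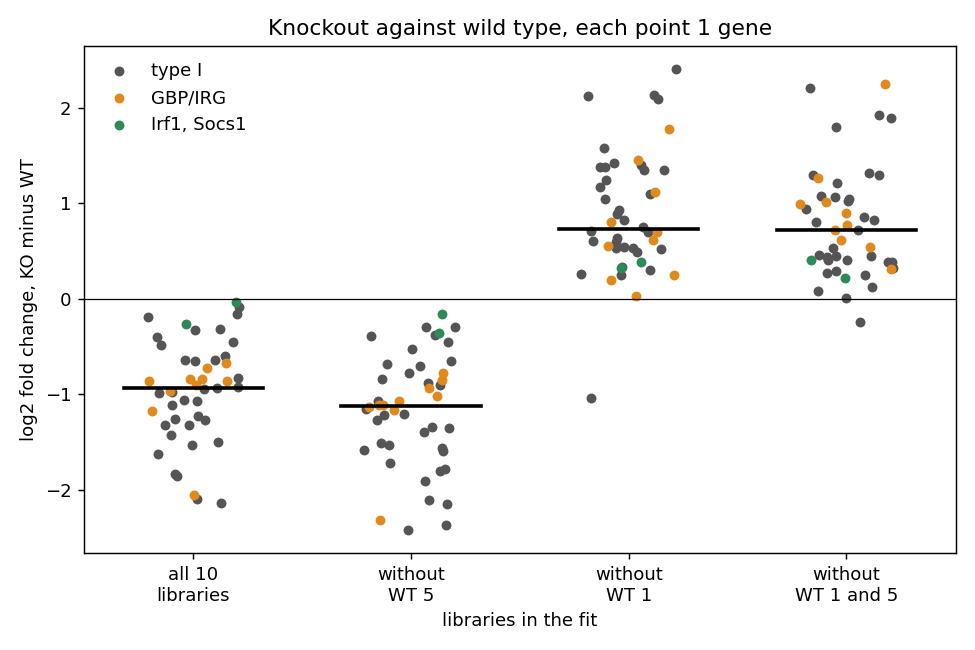
Log2 fold change, KO minus WT, of each of the 46 genes in 4 edgeR fits that differ in the libraries kept, 1 point per gene coloured by class, with a black bar at the median. All 46 points lie below 0 in the 2 fits with WT replicate 1 (medians -0.93 and -1.13), and 45 lie above 0 in the 2 fits without it (medians 0.73 and 0.72).

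By class, the type I score averaged 4.98 ± 1.31 in KO and 5.15 ± 1.88 in WT libraries (SD, n = 5 each), a difference of -0.17, within the spread of either group. The GBP/IRG score averaged 4.25 ± 0.98 in KO and 4.42 ± 1.67 in WT libraries (SD, n = 5 each), also a difference of -0.17. Without WT replicate 5 the differences were -0.60 for the type I score and -0.27 for the GBP/IRG score. Without WT replicate 1 they were 0.62 and 0.57. The median log2 fold change of the 34 type I genes was -0.98 and that of the 10 GBP/IRG genes -0.86 over all libraries. The IFIT genes had the most negative median by role, -1.98, and the 6 regulators the least, -0.30.

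Libraries that share a leading number differed to unequal degrees. WT replicate 1 was above WT replicate 2, with the same number, for 46 of 46 genes, by 3.53 on the type I score and 3.81 on the GBP/IRG score, with a median ratio of 12.9. KO replicate 3 was above KO replicate 4 for 1 of the 46, with a median ratio of 0.587, and WT replicate 3 was above WT replicate 4 for 3 of the 46, with a median ratio of 0.639.

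Interferon transcripts themselves were close to the limit of detection. None of 14 interferon genes passed the filter on low counts, and together they had 117 counts in the 10 libraries, with 4 genes at 0 throughout. Ifnb1, interferon beta, had 0, 0, 12, 17 and 0 counts in KO replicates 1 to 5, against 26, 0, 0, 5 and 0 counts in WT replicates 1 to 5. The 3 libraries with the highest type I score, WT replicate 1 and KO replicates 4 and 3, were also those with the most Ifnb1 counts. A count of 0 allows a level of up to 0.0643 to 0.198 CPM, depending on the library, from 3 counts and covering counting error only. Ifng, interferon gamma, had 4 counts in KO replicate 1 and 0 counts elsewhere, WT replicate 1 included. Ifnl3, an interferon lambda, had 2 counts in KO replicate 4 and 6 in WT replicate 1.

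The receptor genes were less steep in WT replicate 1. Over 6 interferon receptor genes, WT replicate 1 was at 1.0 to 2.39 times the median of the other libraries, and 0 of 6 were called in either fit. Ifnlr1, a chain of the interferon lambda receptor, had 25.5, 34.5, 37.0, 50.6 and 27.0 CPM in KO replicates 1 to 5, against 67.3, 28.1, 30.8, 21.2 and 0.867 CPM in WT replicates 1 to 5, with WT replicate 1 highest, KO replicate 4 next and WT replicate 5 lowest. Ifnar1, a chain of the type I receptor, had 51.2, 48.6, 46.6, 39.3 and 54.3 CPM in KO replicates 1 to 5, against 46.8, 46.6, 42.4, 45.8 and 37.4 CPM in WT replicates 1 to 5. The log2 fold change of Ifnar1 without WT replicate 5 was 0.10 ± 0.10 (SE; edgeR adjusted p = 0.736). Ifngr2, a chain of the gamma receptor, averaged 81.7 ± 11.4 CPM in KO and 98.0 ± 34.3 CPM in WT libraries (SD, n = 5 each), with a log2 fold change over all libraries of -0.26 ± 0.23 (SE; edgeR adjusted p = 0.742), and of -0.08 ± 0.19 (SE; edgeR adjusted p = 0.901) without WT replicate 5, its highest library. The kinase genes Jak1, Jak2 and Tyk2 and the transcription factor gene Stat3 were at 0.665 to 1.26 times the median of the others in WT replicate 1. Stat3, which carries signals of the interleukin 6 family, had 445, 359, 626, 389.5 and 494 CPM in the KO libraries, against 425, 327, 318, 316 and 159 CPM in the WT libraries. Its log2 fold change was 0.58 ± 0.26 (SE; edgeR adjusted p = 0.669), and 0.44 ± 0.17 (SE; edgeR adjusted p = 0.382) without WT replicate 5.

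Of 17 genes of nucleic acid sensing, 16 were tested, 0 were called by edgeR in either fit, and 9 were highest in WT replicate 1. Only Ddx58, which encodes the RNA sensor RIG-I, and Adar, an RNA-editing enzyme with an interferon-induced form, passed 4-fold there, at 4.89 and 4.06 times the median of the others. Ticam1, the adaptor TRIF of toll-like receptor 3, had 28.1, 26.1, 32.4, 21.4 and 33.0 CPM in KO replicates 1 to 5, against 22.8, 19.8, 19.0, 19.2 and 16.7 CPM in WT replicates 1 to 5. The highest WT library, replicate 1, lay above the lowest KO library, replicate 4. Its log2 fold change was 0.53 ± 0.16 (SE; edgeR adjusted p = 0.669), and 0.50 ± 0.14 (SE; edgeR adjusted p = 0.295) without WT replicate 5, where limma-voom with sample quality weights did call it (log2 fold change 0.58, adjusted p = 0.047). Among 6 negative regulators, 0 were called, and Socs3, an inhibitor induced by STAT3, had 26.0, 27.0, 70.0, 58.5 and 26.1 CPM in the KO libraries, against 26.7, 26.7, 23.6, 32.9 and 26.5 CPM in the WT libraries. KO replicates 3 and 4 were high for Socs3, which had a log2 fold change of 0.61 ± 0.31 (SE; edgeR adjusted p = 0.669). Without WT replicate 5 it was 0.61 ± 0.33 (SE; edgeR adjusted p = 0.511). Leaving out each library in turn, the Socs3 value over all libraries lay between 0.34, without KO replicate 3, and 0.74, without KO replicate 1. It was 0.16 with sample quality weights in limma-voom.

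Other gamma interferon targets shared the high level of WT replicate 1 unevenly. Of 12 such genes 11 were tested over all libraries, and 0 were called. Of these 11, 9 were highest in WT replicate 1 and 7 were there at least 4-fold over the median of the others. Without WT replicate 1 the log2 fold changes were positive except for Ciita, Cd274 and Ido1. The smallest p belonged to Psmb8 (1.15 ± 0.27), Nlrc5 (1.84 ± 0.47), Tap2 (0.70 ± 0.19) and Psmb9 (0.93 ± 0.26; SE). None was called in that fit (edgeR adjusted p = 0.558 for each). In WT replicate 1 the chemokine genes Cxcl10 and Cxcl11 had ratios of 20.1 and 13.7 to the median of the others. The ratio was 7.2 for Tap1, a peptide transporter of antigen presentation, and 6.19 for the immunoproteasome gene Psmb9. Cxcl11 was nevertheless highest in KO replicate 4, at 5.00 CPM (166 counts), against 3.65 CPM (121 counts) in WT replicate 1. Cxcl9, a chemokine known as a gamma interferon target, had 6.42, 4.65, 1.67, 4.22 and 0.487 CPM in KO replicates 1 to 5, against 4.28, 1.53, 1.07, 1.19 and 2.07 CPM in WT replicates 1 to 5. Here KO replicates 1 and 2 were above WT replicate 1. The log2 fold change of Cxcl9 was 0.78 ± 0.64 (SE; edgeR adjusted p = 0.727), and lay between 0.44, without KO replicate 1, and 1.26, without WT replicate 1, when each library was left out in turn. Ciita, the master regulator of class II antigen presentation, had 5.01, 7.13, 2.69, 3.49 and 5.33 CPM in the KO libraries, against 7.51, 5.47, 7.36, 6.54 and 2.94 CPM in the WT libraries, and a log2 fold change without WT replicate 5 of -0.49 ± 0.28 (SE; edgeR adjusted p = 0.529).

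Markers of other cells in WT replicate 1 differed by list. Its summed T and NK cell markers, 7.36 CPM over 15 genes, were the lowest of the 10 libraries, against 8.18 to 19.3 CPM in the other 9, with Ncr1 and Prf1 at 0. Single genes of this list differed. WT replicate 1 was at 1.38, 1.53 and 1.3 times the median of the others for Cd3d, Cd3e and Cd4. It was at 0.435 to 0.964 times for Cd3g, Cd2, Cd8a, Trac, Trbc2 and Gzmb, and lower for Il2rb (0.176) and Nkg7 (0.0753). Cd8b1 and Klrb1c, with 6 and 4 counts in WT replicate 1, were not tested. Its fibroblast markers (166.7 CPM over 7 genes, against 1446 to 11207 CPM) were also the lowest, as were its endothelial markers (57.1 CPM over 6 genes, against 110.2 to 791.3 CPM) and adipocyte markers (9.35 CPM over 6 genes, against 26.4 to 10973 CPM). Its 10 macrophage markers summed to 802.9 CPM, sixth of the 10 libraries, and its 10 luminal markers to 6412 CPM, second. Of the luminal markers Krt19 was low there, at 41.2 CPM, against a median of 335.9 CPM in the other 9 libraries. The remaining luminal markers were at 0.9 to 1.52 times the median of the others. The macrophage markers went different ways, and Cd14 alone gave 342 of the 802.9 CPM. WT replicate 1 was the lowest library for Mrc1 (1.03 CPM, against 10.5 to 227.5 CPM) and Csf1r, and the highest for Cd68 and Fcgr1. Its 6 conventional dendritic markers summed to 6.33 CPM, of which 5.85 CPM was Zbtb46, and its 6 plasmacytoid dendritic markers to 157.1 CPM, of which 155.6 CPM was Tcf4, so these sums say little of the other markers. Clec9a, Flt3 and Cd209a of the conventional list and Siglech of the plasmacytoid list were lowest in WT replicate 1, with Cd209a at 0. Of 7 neutrophil markers WT replicate 1 was the highest library for S100a8 alone, a calcium-binding protein of neutrophils that epithelium can make as well. S100a8 gave 1242 of its summed 1265 CPM, against sums of 11.5 to 315.1 CPM in the other 9 libraries. S100a9, Retnlg, Cxcr2, Mmp8 and Csf3r were highest in KO replicate 4 and Ly6g in KO replicate 3. The part of these markers in the interferon levels was not tested.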

How the data were processed

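Poly(A) RNA of 10 whole mammary tumours was measured as stranded Illumina libraries, per the labels' protocols. The deposited values are whole-number read counts per Ensembl gene, not normalized. FastQC, STAR, featureCounts, DESeq2 and build GRCm39 are named in the submitters' processing notes. Their versions, the annotation, the strand setting and the rule for multi-mapping reads remain unknown, not given in the sources used here, so near-identical copies may have lost or shared reads. There were 0 count columns without a sample.

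KO and WT were compared with edgeR 4.0.16 (R 4.3.3), with TMM scaling, filterByExpr, the robust quasi-likelihood test and Benjamini-Hochberg adjustment over all genes tested, calling at an adjusted p under 0.05. The SE of a log2 fold change is its size over the square root of F. The edgeR, DESeq2 and weighted limma-voom fits, over all libraries and without WT replicate 5, were first run on simulated data. No library was set apart in those data. The fits without other libraries and the remaining alternatives were not simulated. Log2 CPM in scores used a prior count of 2. No p was computed for scores or over the list alone. Alternatives were RLE scaling, DESeq2 1.42.0, limma 3.58.1 (voom with sample quality weights, or with the leading number as a block), counts summed per leading number, other low-count filters, other prior counts and leaving out each library in turn. For the pathway genes these alternatives were added after the data were seen. Motif letters were searched in RefSeq promoter windows, and shared 50-base stretches in GENCODE transcripts of GRCm38.

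The members and lists were chosen with earlier results of these data known. Genes named with all values are, per role, those with the smallest p in each fit and with the largest ratio of WT replicate 1 to the median of the other 9. Other members are named at ends of ranges, with their role, or where they share reads with a copy.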

Additional observations from a re-analysis of the deposited data

Results flagged for a closer look

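Within each group of 5 libraries, the gap between the most extreme library and its nearest neighbour was divided by the range of the group, and values above 0.71 were listed. Of 38 values examined (17 genes and both scores in each group), 19 passed. The genes were chosen in part for a high level in WT replicate 1, so this number is a description and is set against no rate of chance. In 17 of the 19 WT replicate 1 was the library apart, and these are not independent because the genes move together. The ratio there was 0.943 for Usp18, 0.911 for Zbp1, 0.990 for Ifit2, 0.988 for Ifit3, 0.899 for Oas1a, 0.985 for Oas3, 0.948 for Cmpk2 and 0.963 for Mx1. It was 0.930 for Parp14, 0.835 for Dtx3l, 0.928 for Isg15, 0.896 for Ifi44, 0.722 for Gbp5, 0.942 for Gbp7, 0.935 for Gbp3, 0.978 for Tgtp1 and 0.837 for the GBP/IRG score. In WT libraries WT replicate 5 stood apart for Ifi27 (0.929), and in KO libraries KO replicate 4 stood apart for Oas3 (0.867).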

How the results depend on the processing

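In every alternative run, 0 of the 46 genes were called. No paired analysis was possible because replicates were numbered in accession order and the leading numbers of library names are not shared between KO and WT. The sign of KO minus WT rested on WT replicate 1. Leaving out each library in turn, the median log2 fold change of the 46 genes ran from -1.27 to 0.73 over all libraries and from -1.47 to 0.72 without WT replicate 5, the type I score difference from -0.60 to 0.62 and from -1.04 to 0.30, and the GBP/IRG score difference from -0.45 to 0.57 and from -0.68 to 0.68. KO replicate 5 also turned some of these. Without it the type I score difference was 0.33 and the GBP/IRG score difference 0.21 over all libraries, and the GBP/IRG score difference was 0.12 without WT replicate 5. Over all libraries the ranges were -2.59 to 0.71 for Usp18, -1.58 to 0.75 for Zbp1, -2.60 to 1.40 for Ifit2, -1.86 to 0.53 for Oas1a, -2.10 to 0.70 for Cmpk2, -1.23 to 0.52 for Parp14, -1.44 to 0.026 for Gbp5 and -2.58 to 1.78 for Tgtp1. Without WT replicate 5 they were -2.86 to 0.46 for Usp18, -1.86 to 0.44 for Zbp1, -2.87 to 1.30 for Ifit2, -2.12 to 0.27 for Oas1a, -2.38 to 0.45 for Cmpk2, -1.14 to 0.0795 for Dtx3l, -1.92 to 0.45 for Ifi44, -1.12 to 0.32 for Gbp7 and -2.83 to 2.26 for Tgtp1. With sample quality weights in limma-voom, log2 fold changes over all libraries turned to 0.12 for Ifit2, 0.33 for Gbp5, 1.57 for Tgtp1 and 0.13 for Ifngr2, and without WT replicate 5 to 0.11 for Ifit2 and 1.57 for Tgtp1. With the leading number as a block they turned to 0.10 for Zbp1 and 0.37 for Tgtp1, and to 0.36 for Tgtp1 without WT replicate 5. The cause was not tested. The median over the 46 genes was -0.12 and -0.13 with quality weights, and -0.14 and -0.55 with the block, in the fits with and without WT replicate 5, with 14 and 14, and 14 and 2, of the 46 positive. Without a scaling factor the differences over all libraries were -0.010 for the type I score and -0.008 for the GBP/IRG score. With counts summed per leading number they were -0.379 and -0.499, and -1.251 and -0.823 without WT replicate 5. None of the 46 genes had a count of 0 in any library, where the lowest count was 16; counts of 0 limit the interferon genes, Trex1, Ido1 and some markers.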
